A study of Rattus norvegicus with 24 samples.

Results

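Adcyap1, the gene of the neuropeptide PACAP (ENSRNOG00000049882), and the receptor genes Adcyap1r1 (PAC1, ENSRNOG00000012098) and Vipr2 (VPAC2, ENSRNOG00000004317) were followed in single neurons of the rat dorsal root ganglion (DRG). They were chosen by symbol from a list of 4 genes. The fourth gene, Vipr1, which encodes the receptor VPAC1, is not analysed here, so 3 genes of the 32881 shared by all count tables are described. Values were taken in 1433 neurons of 23 samples that held at least 500 genes, at least 1000 UMIs (unique molecular identifiers, each a counted RNA molecule) and a mitochondrial share under 5%. The study had picked out Adcyap1 from these same samples. It took genes shared by the markers of its PEP1 and PEP3 neurons and a module raised 1 day after injury in crushed PEP1 neurons. The gene, these neuron types and that time are therefore not an independent choice.

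All neurons came from L4 and L5 DRGs of male Sprague-Dawley rats. In spared nerve crush (SNC), 2 branches of the sciatic nerve (tibial and common peroneal) were crushed while the sural branch was spared. In sham surgery the nerve was laid open without a crush. Neurons were labelled from their axons with 1 dye in the tibial and common peroneal nerves and another in the sural nerve (DiO and DiI), so samples after SNC mix injured neurons with neurons of the spared branch, and the dye of each neuron is not used here. The study's methods place this labelling 2 weeks before the operation, with the sciatic nerve exposed and dye injected into its branches. Labelled Sham neurons thus came from nerves that had been exposed and injected before. The labelled set held 930 neurons of 16 DRG samples, with 215 neurons in 4 Sham samples, 238 in 4 samples at 1 d, 237 in 3 samples at 3 d and 240 in 5 samples at 7 d after SNC. A further 503 neurons came from 7 added sham libraries with no dye count in their labels, of which 3 were taken at day 0, 2 at 1 d, 1 at 3 d and 1 at 7 d. The sample is the replicate throughout. The labels do not say whether each sample was a separate rat, so the spread between samples may be partly technical.

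PACAP is a peptide of the VIP, secretin and glucagon family that is released from nerve endings, and many small sensory neurons make it. PAC1 binds PACAP far more tightly than VIP, whereas VPAC1 and VPAC2 bind both peptides. All these receptors couple to Gs and raise cyclic AMP, and PAC1 can also act through Gq and phospholipase C. In the DRG, Adcyap1 is known as a gene that neurons turn up after their axons are cut.

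The 250 bases before the RefSeq start of each gene, in the assembly GRCr8, are shown because the levels described here are of transcripts of these genes, and because the ligand and the receptors differ in base composition there. Capitals mark TATAAA, which was searched on both strands together with TGACG and TGACGTCA, which are cyclic AMP response elements, and TGANTCA, the element of AP-1 factors. The counts were made on Rnor_6.0, so these positions are not those of the count tables.
Adcyap1: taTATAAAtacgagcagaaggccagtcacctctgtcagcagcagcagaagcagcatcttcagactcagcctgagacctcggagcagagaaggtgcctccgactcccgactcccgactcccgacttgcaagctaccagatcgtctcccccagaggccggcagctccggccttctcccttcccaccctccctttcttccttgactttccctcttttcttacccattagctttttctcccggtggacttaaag
Adcyap1r1: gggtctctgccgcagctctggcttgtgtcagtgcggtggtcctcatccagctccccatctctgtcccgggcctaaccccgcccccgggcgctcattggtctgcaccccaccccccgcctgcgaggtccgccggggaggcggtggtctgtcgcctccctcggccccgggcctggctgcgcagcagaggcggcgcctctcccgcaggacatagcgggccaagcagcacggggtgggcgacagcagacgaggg
Vipr2: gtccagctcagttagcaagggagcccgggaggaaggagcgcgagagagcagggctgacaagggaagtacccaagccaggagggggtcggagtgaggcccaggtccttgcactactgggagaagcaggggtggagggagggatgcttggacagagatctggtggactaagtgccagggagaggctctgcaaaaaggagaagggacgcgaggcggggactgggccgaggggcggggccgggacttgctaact
The Adcyap1 window lies at chr9:120556474-120556723 on the minus strand, has a GC content of 55.6% and holds TATAAA from 248 bases before the start. The Adcyap1r1 window, at chr4:85923921-85924170 on the plus strand, has a GC content of 73.2%. The Vipr2 window, at chr6:143144273-143144522 on the plus strand, has a GC content of 64%. Neither receptor window holds TATAAA, and TGACG, TGACGTCA and TGANTCA are in none of the 3 windows. Of 33469 rat promoter windows of the same length, 12.9% held TATAAA, 18.2% TGACG, 1.59% TGACGTCA and 6.34% TGANTCA, where the longer cyclic AMP element contains the shorter one. The window of Vip holds TGACG at 97 bases before its start (position -97), and that of Gal holds it at position -63.

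Neurons of the labelled set had a median of 239292 UMIs and those of the added set 340145. Summed per sample, Sham samples held 4002564 to 27504659 UMIs, SNC samples 8703837 to 28976434 and added libraries 14004381 to 40733436. Clustering gave 10 labelled clusters and 8 added ones, and the suffix "-like" marks names rebuilt here from marker genes. Labelled cluster 8 was left unnamed because 6 of 7 glial markers were high in it along with Trpm8, Foxp2 and Cdh8. Added cluster 5, high in 6 of 7 glial markers, was likewise left unnamed. Added cluster 0, led by Kcng1 and Kit, was high in 6 of 16 PEP1 markers and 8 of 24 PEP3 markers. By share its best match was PEP1, but it was left unnamed, a choice made after seeing the data. Added cluster 2 (91 neurons, led by Rbp2 and Otof) and added cluster 4 (58 neurons, led by Cav1 and Rgs5) were left unnamed too, each high in only 1 marker of its best-matching type. The sensory neuron genes Rbfox3, Tubb3, Uchl1, Avil and Prph summed to between 5680 and 8586 CPM (counts scaled to 1000000 UMIs per sample) in the labelled samples and between 4548 and 5393 CPM in the added ones. The 7 glial markers summed to 181 to 1330 CPM in Sham, 255 to 1063 at 1 d, 122 to 245 at 3 d, 145 to 253 at 7 d and 122 to 823 in the added libraries, with Kcnj10 at 0 in every Sham and every added sample.

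Adcyap1 RNA was in nearly every labelled neuron and was not limited to the PEP1-like cluster. At least 1 UMI was found in 906 of 930 labelled neurons (97.4%), and the 24 without one had a median of only 15174 UMIs in all. Levels per neuron were graded. The median neuron held 348 CPM, the quartiles were 96.2 and 726 CPM, and the highest neuron held 2445 CPM. At least 100 CPM was found in 691 labelled neurons (74.3%).

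The PEP3-like cluster (116 neurons, high in Tac1, Calca and Trpv1, genes of substance P, CGRP and the capsaicin receptor) held the most Adcyap1. Over 11 samples it averaged 1051 CPM ± 361 (SD), with a range of 837 to 2056 CPM, and in 11 of 11 samples it lay above the other neurons of its sample, which averaged 366 CPM. It made up 12.5% of labelled neurons and held 24.1% of all Adcyap1 UMIs. The study had itself listed Adcyap1 among the marker genes of its PEP1 and PEP3 neurons. Most markers used here to name PEP3-like neurons also share the study's gene module with Adcyap1, so this rank is not independent of the study. The unnamed cluster 8 came next with 671 CPM ± 188 (n = 7), above the other neurons in 7 of 7 samples. Its 6 high glial markers move with that level, and their part in it was not tested.

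PEP1-like neurons (186, high in Gal, Arg1 and Thbd, and led by Cck and Kit) held 521 CPM ± 147 (n = 16), between 181 and 727 CPM, and lay above the other neurons in 12 of 16 samples. They held 21.1% of Adcyap1 UMIs. Only 7 of 16 PEP1 markers were high in this cluster. Tac1, by which the study defined PEP1 together with Gal, was not among them, so the cluster need not be the study's PEP1 neurons. The NF-like cluster 3 (91 neurons led by Shox2 and Ntng1, high in Nefh, Nefm and Pvalb, genes of large myelinated neurons) reached a like level, 494 CPM ± 206 (n = 12, range 102.5 to 742), and held 22.0% of the UMIs. All 8 NF markers were high in this cluster, and so were all 4 markers of the c_pLTMR2 type (putative low-threshold C-mechanoreceptors). The tie went to NF only by the order of the lists. Adcyap1 was found in all 91 of these neurons. The other NF-like cluster (84 neurons led by S100a16 and Kcnv1) held 330 CPM ± 139 (n = 15) and lay above the other neurons in 4 of 15 samples.

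The lower end of the order held itch-type, nonpeptidergic and PEP2-like neurons. TRPM8-like neurons, of the cold-sensing kind, held 400 CPM ± 234 (n = 5), and the SST-like cluster 5 (Nppb, Il31ra and Osmr) held 269 CPM ± 103 (n = 12). PEP2-like neurons, the largest cluster with 195 neurons (Gal, Litaf, Cnga4), averaged 177 CPM ± 122 (n = 16) and lay below the other neurons in each of the 16 samples. They were 20.97% of labelled neurons but held 6.26% of the UMIs. NP-like neurons (Mrgprb4, P2rx3, Lpar3) held 105 CPM ± 81.3 (n = 8) and the SST-like cluster 7 (Sst and all other SST markers) 79.4 CPM ± 35.9 (n = 8), and neither lay above the other neurons in any of its 8 samples. Each cluster and its neighbour in this order had overlapping ranges of mean ± SD. A UMI of Adcyap1 was found even in 57 of 57 neurons of SST-like cluster 7 (median 311100 UMIs) and in 57 of 58 NP-like neurons (median 304371), so a share of neurons with a UMI does not separate the clusters. Free RNA as a source of such low counts was not tested.

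**Figure D1:**
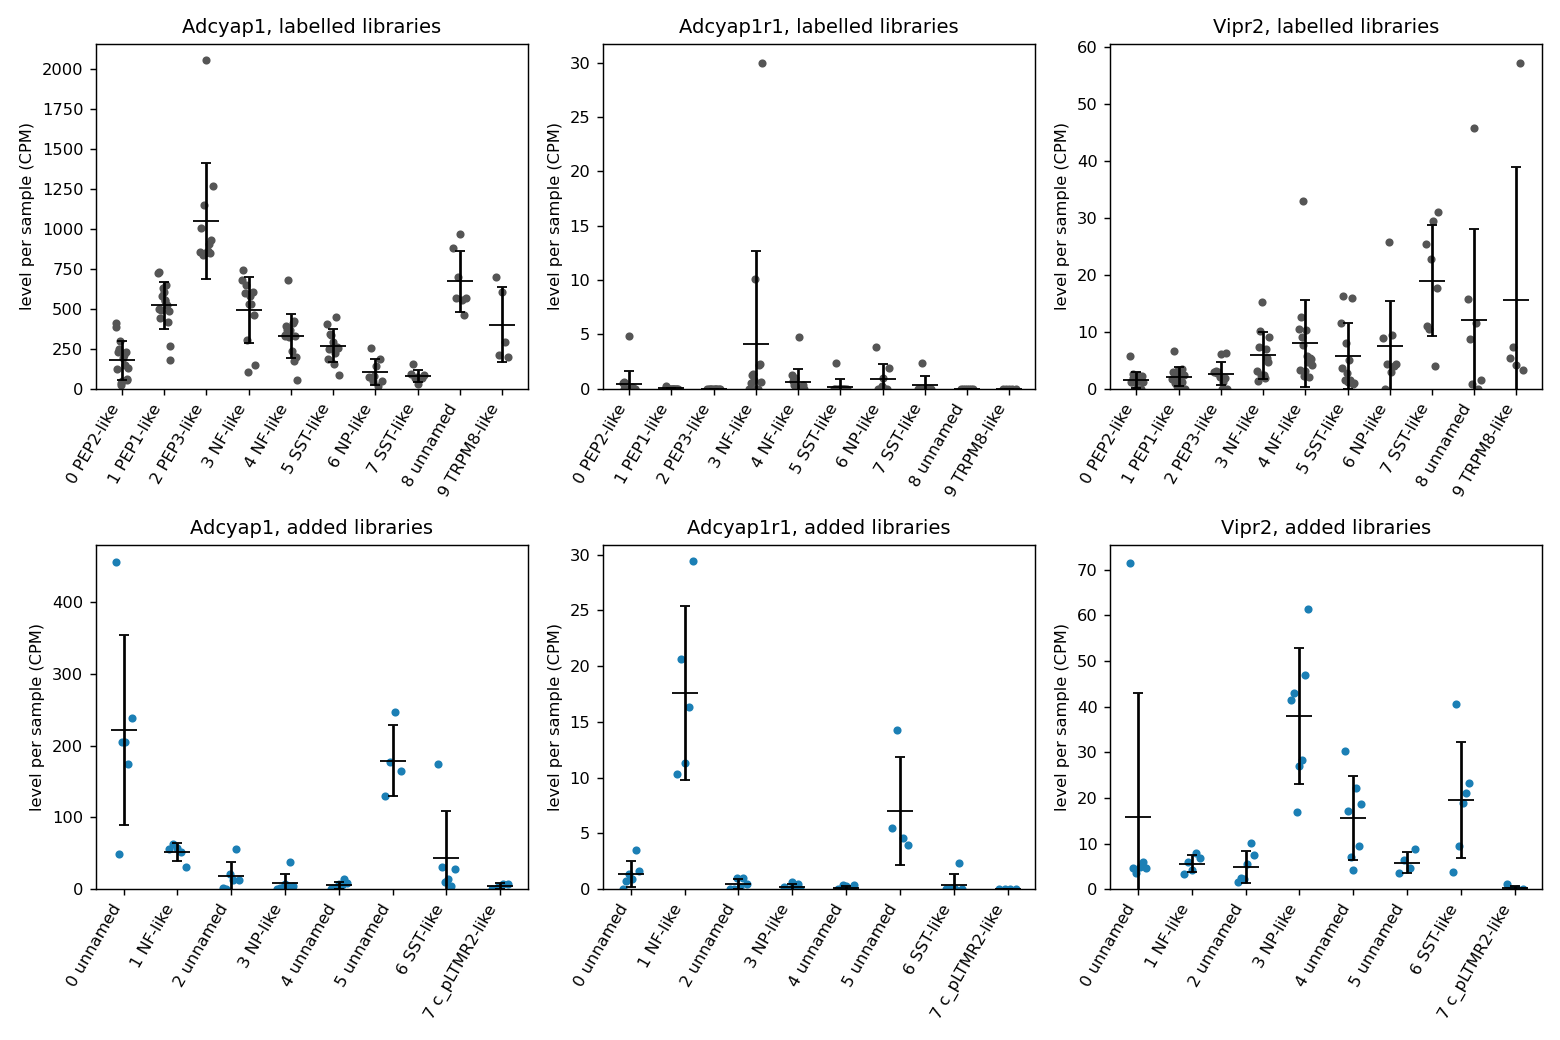
CPM of Adcyap1, Adcyap1r1 and Vipr2 in each neuron cluster of the labelled and the added set, where each point is the sum over at least 3 neurons of 1 sample and bars give the mean and SD over samples. Adcyap1 is highest in the labelled PEP3-like cluster at 1051 CPM, Adcyap1r1 in labelled NF-like cluster 3 and the added NF-like cluster, and Vipr2 in the labelled SST-like cluster 7 and the added NP-like cluster.

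PEP3-like and PEP1-like neurons differed in their other peptides as well. Vip, the gene of the related peptide VIP, averaged 61.6 CPM ± 92.1 in PEP3-like (n = 11), 595 ± 188 in PEP1-like (n = 16) and 987 ± 340 in PEP2-like neurons (n = 16), so across these 3 clusters Vip was lowest where Adcyap1 was highest. Tac1 was highest where Adcyap1 was highest, with 2697 CPM ± 835, 844 ± 316 and 371 ± 275. Tac1 was among the markers that named PEP3-like neurons, so it is a description only.

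In the added libraries Adcyap1 was lower and was concentrated in fewer neurons. The median added neuron held 11.8 CPM, 81 of 503 (16.1%) reached 100 CPM, and the highest held 1760 CPM. The unnamed cluster 0 (106 neurons) held 57.1% of Adcyap1 UMIs with 21.1% of the neurons. It was led by Kcng1, as the PEP3-like cluster was, and by Kit, as the PEP1-like cluster was. It was high in Tac1, which is on the marker lists of both types, so it is assigned to neither. Its samples held 456 (S2), 49.6 (S7), 205 (S3), 205 (S6), 174 (S4) and 238 CPM (S5), a mean of 221 ± 132. It lay above the other neurons in 5 of 6 libraries, with S7 as the exception. The unnamed cluster 5, high in glial markers, held 179 CPM ± 49.0 (n = 4).

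The other added clusters were low in the ligand. The NF-like cluster 1, which shares the leading genes Shox2 and Ntng1 with labelled cluster 3, held 51.8 CPM ± 12.3 (n = 5), and its range of mean ± SD lay apart from that of cluster 5. Beside 8 of 8 NF markers, 3 of 4 c_pLTMR2 markers were high in cluster 1. SST-like neurons held 43.9 CPM ± 64.8 (n = 6), with 174 CPM in S1 alone. Unnamed cluster 2 averaged 17.7 CPM ± 20.6, with a UMI in 57 of its 91 neurons (62.6%). NP-like neurons held 8.12 CPM ± 13.6 (n = 7), unnamed cluster 4 (led by Cav1 and Mc4r) 5.69 ± 4.99 (n = 7) and c_pLTMR2-like neurons 4.41 ± 3.56 (n = 4). A UMI was found in 32 of 76 added NP-like neurons (42.1%, median 315371 UMIs) and in 7 of 17 c_pLTMR2-like neurons (41.2%, median 270907 UMIs), the lowest shares in these libraries.

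Adcyap1r1, the gene of the receptor that prefers PACAP, was rare and lay mainly in NF-like neurons. It was detected in 40 of 930 labelled neurons with 212 UMIs in all. The NF-like cluster 3 held 157 of these UMIs (74.1%), and the other NF-like cluster held 23 (10.8%). In cluster 3, 18 of 91 neurons had a UMI (19.8%, exact 95% interval 12.2 to 29.4%, median 526885 UMIs), and the mean over 12 samples was 4.10 CPM ± 8.60. This cluster lay above the other neurons in 9 of 12 samples. In PEP1-like neurons the gene was found in 1 of 186 (0.538%, median 204222 UMIs), and in PEP3-like neurons in 0 of 116 (median 185834 UMIs), which allows a share of up to 3.13%. It was also at 0 in 29 TRPM8-like neurons, where the upper limit is 11.9%. These intervals cover counting error only, and the NF-like neurons were sequenced more deeply than the peptidergic ones.

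A few neurons held most of the labelled signal. In Sham sample 4, 79 of the sample's 82 Adcyap1r1 UMIs lay in 1 neuron of NF-like cluster 3. That neuron held 63.4 CPM of Adcyap1r1, 28.1 CPM of Adcyap1 and 7.22 CPM of Sprr1a, an injury-induced gene of growing axons. In sample 19-1 (7 d), 19 of 42 UMIs lay in 1 neuron of the same cluster, with 30.7 CPM of Adcyap1r1 and 21.03 CPM of Adcyap1. The 18 neurons of cluster 3 with a UMI of the receptor had a median of 238 CPM of Adcyap1 and 10.9 CPM of Sprr1a, and the 73 without had 567 and 80.9 CPM. The neurons with the receptor had a median of 687672 UMIs in all, and those without it 487758.

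In the added libraries Adcyap1r1 was found in 125 of 503 neurons, and again the NF-like cluster held most of it, 880 of 1083 UMIs (81.3%). Its samples held 10.3 (S7), 20.6 (S3), 11.4 (S6), 16.3 (S4) and 29.4 CPM (S5), a mean of 17.6 ± 7.79. All 5 lay above the other neurons of their library. A UMI was found in 65 of 98 neurons of this cluster (66.3%, interval 56.1 to 75.6%, median 484876 UMIs). Libraries S1 and S2 held no NF-like neuron, and had 1 and 0 UMIs of Adcyap1r1 in all. The glia-marked cluster 5 held 7.05 CPM ± 4.84 (n = 4), cluster 0 held 1.35 ± 1.19 (n = 6), NP-like neurons 0.180 ± 0.260 (n = 7), and the c_pLTMR2-like cluster held 0 UMIs in 17 neurons.

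Vipr2, the gene of a receptor shared by PACAP and VIP, had a different distribution, with its highest mean levels in the labelled SST-like cluster 7 and the added NP-like cluster. It was detected in 318 of 930 labelled neurons (34.2%). The SST-like cluster 7 held 17.7 and 31.0 CPM in 2 Sham samples, 25.4 at 1 d, 11.005, 10.5 and 22.7 at 3 d, and 29.4 and 4.00 at 7 d. That is a mean of 19.0 CPM ± 9.79 (n = 8), above the other neurons in 7 of 8 samples, with a UMI in 80.7% of neurons (interval 68.1 to 89.95%) and 24.0% of all Vipr2 UMIs. The same cluster held the lowest Adcyap1 level of the labelled set.

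Peptidergic clusters were low in Vipr2. PEP3-like neurons held 2.62 CPM ± 2.04 (n = 11, detected in 24.1% of neurons), PEP1-like 2.12 ± 1.63 (n = 16, 19.4%) and PEP2-like 1.56 ± 1.42 (n = 16, 11.3%). Between these and SST-like cluster 7 lay NF-like cluster 4 with 7.93 CPM ± 7.65 (n = 15, 59.5%), NP-like neurons with 7.45 ± 8.02 (n = 8, 39.7%), NF-like cluster 3 with 5.83 ± 4.15 (n = 12, 61.5%) and SST-like cluster 5 with 5.76 ± 5.78 (n = 12, 41.7%). Within these 4 clusters the SD between samples was larger than the differences between their means, so their order is not resolved. TRPM8-like neurons averaged 15.5 CPM ± 23.4 (n = 5), with 57.3 CPM in sample S and 3.21 to 7.35 CPM in the other 4. The unnamed cluster 8, high in glial markers, averaged 12.0 CPM ± 16.0 (n = 7), between 0 and 45.7 CPM, with a UMI in 28.6% of its 42 neurons.

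The added NP-like cluster, led by Lmx1a, Iapp and Crh, held the highest Vipr2 level. Its libraries held 41.5 (S1), 42.9 (S2), 16.8 (S7), 26.99 (S3), 28.2 (S6), 46.9 (S4) and 61.4 CPM (S5), and each lay above the other neurons of its library. The mean was 37.8 CPM ± 14.9, and 70 of 76 neurons had a UMI (92.1%, interval 83.6 to 97.0%). This cluster held 43.0% of Vipr2 UMIs of the set. It was named by Scg3, P2rx3 and Lpar3 and shares no leading gene with the labelled NP-like cluster, which was led by Mrgprb4. Among the added clusters Mrgprb4 was instead a leading gene of unnamed cluster 2, where Vipr2 averaged 4.86 CPM ± 3.41. The NP-like clusters of the 2 sets thus need not be the same neuron type. SST-like neurons again had a raised mean of 19.5 CPM ± 12.7 (n = 6), with cluster 4 at 15.6 ± 9.22 (n = 7) and NF-like neurons at 5.61 ± 1.83 (n = 5). In the c_pLTMR2-like cluster only 2 of 17 neurons had a UMI (11.8%, median 270907 UMIs), which is the lowest share among the added clusters. Added NF-like neurons had a UMI in 73.5% (median 484876 UMIs).

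Ligand and receptor RNAs met in single neurons mostly through Vipr2 in the labelled set and through both receptors in the added NF-like cluster. Of the labelled neurons, 578 (62.2%) held a UMI of the ligand with neither receptor, 315 (33.9%) held it with Vipr2, 40 (4.30%) with Adcyap1r1 and 27 (2.90%) with both. Only 3 labelled neurons had a receptor without the ligand. Ligand without receptor was most frequent in PEP1-like (149 of 186, 80.1%), PEP2-like (151 of 195, 77.4%) and PEP3-like neurons (88 of 116, 75.9%). These clusters had medians of 204222, 148159 and 185834 UMIs, against 526885 and 449684 in NF-like clusters 3 and 4. The part of depth in these shares was not tested by cluster. All 3 RNAs were found in 14 of 91 neurons of NF-like cluster 3 (15.4%) and in 10 of 84 of the other NF-like cluster (11.9%).

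In the added set, 99 of 503 neurons (19.7%) held the ligand alone, 251 (49.9%) held it with Vipr2, 119 (23.7%) with Adcyap1r1 and 89 (17.7%) with both receptors. A receptor without the ligand was found in 65 neurons (12.9%), of which 39 were NP-like, more than any other cluster and 51.3% of that cluster. All 3 RNAs were found in 47 of 98 NF-like neurons (48.0%), in 17 of 106 of cluster 0 (16.0%) and in 11 of 29 of the glia-marked cluster 5 (37.9%).

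**Figure D2:**
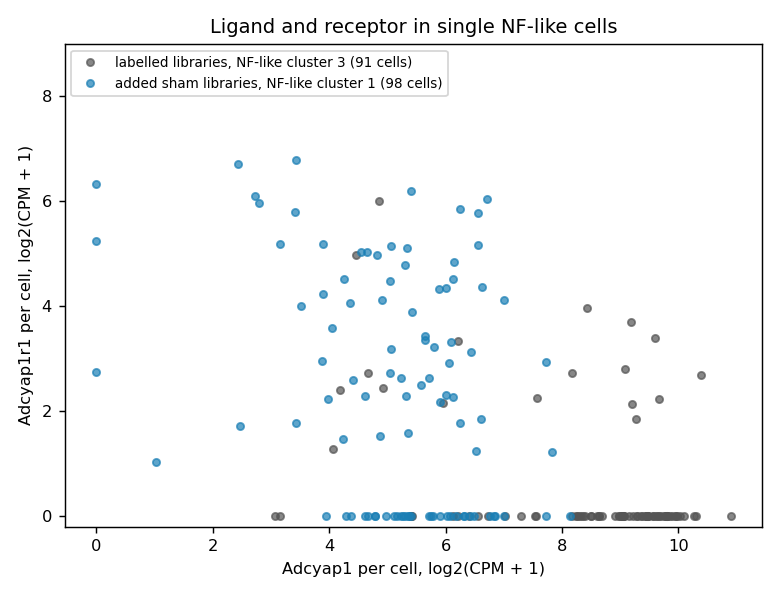
Adcyap1 against Adcyap1r1 in single NF-like neurons led by Shox2 and Ntng1, both as log2(CPM + 1), for 91 labelled neurons of cluster 3 and 98 added neurons of cluster 1. Labelled neurons lie at higher Adcyap1, and most of them, 73 of 91, are at 0 for the receptor.

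Detection rises with depth, so the overlap was compared after each neuron had been thinned to 50000 UMIs. This left out 120 labelled and 33 added neurons with fewer UMIs. Adcyap1r1 was then found in 11 of 774 labelled neurons with the ligand (1.42%) and in 0 of 36 without it, and in 35 of 248 added neurons with the ligand (14.1%) against 10 of 222 without it (4.50%). Within samples the difference averaged 1.42 percentage points ± 1.45 over 5 labelled samples and 4.95 ± 6.20 over 7 added ones (above 0 in 3 of 5 and 4 of 7). Neither passed an exact two-sided sign-flip test (p = 0.25 and p = 0.125, both 0.3125 after adjustment over 4 tests). With 5 samples such a test cannot go below 0.0625, and samples with a difference of 0 raise that limit. In the labelled set the difference was 0 in samples 17-3 and 18, and no neuron without the ligand held the receptor. The labelled p of 0.25 was therefore the lowest its test could give, and it decides nothing. For Vipr2 the direction was the other way. It was found in 16.9% of labelled neurons with the ligand and 30.6% of those without, and in 24.2% and 36.9% of added neurons, with mean differences of -14.1 and -12.6 percentage points (adjusted p = 0.3125 for both, exact sign-flip test). When at least 10 UMIs of Adcyap1 were asked for, the difference for Adcyap1r1 turned to -6.57 points in the added set, below 0 in 5 of 5 samples. For Vipr2 that setting gave -10.6 points over 16 labelled samples (unadjusted p = 0.0115, exact sign-flip test) and -18.6 points in the added set, below 0 in 5 of 5 samples. With no thinning the direction for Vipr2 turned, to 20.3 points in the labelled set (above 0 in 3 of 3 samples) and 25.7 in the added set (6 of 7).

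The second question was whether the levels differed after SNC. In all labelled neurons together, Adcyap1 was at 376 (sample 10), 391 (18), 156 (4) and 355 CPM (the remaining sample) in Sham, and at 510, 542, 443 and 461 CPM in the 4 samples at 1 d. Every 1 d sample lay above every Sham sample, which was the case for 2.35% of the 14239 genes tested. The means were 320 CPM ± 110 and 489 ± 45.5, a ratio of 1.53. An exact two-sided permutation test gave p = 0.0286, the smallest that 4 samples against 4 allow, which is 0.257 after adjustment over 9 tests, and edgeR's quasi-likelihood test across all genes gave a log2 fold change of 0.54 (SE 0.27) with an adjusted p of 0.582. The difference did not pass either corrected test. In such sums, fewer neurons of a rich type and less RNA per neuron cannot be told apart.

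At the later times the groups overlapped. Adcyap1 was at 570, 432 and 328 CPM at 3 d (443 ± 122), and at 288 (19-1), 226 (19-2), 456 (8), 476 (9) and 390 CPM (S) at 7 d (367 ± 108). The ratios to Sham were 1.39 and 1.15 (adjusted p = 0.9 for both, exact permutation test), and edgeR gave log2 fold changes of 0.43 (SE 0.29, adjusted p = 0.966) and 0.14 (SE 0.26, adjusted p = 1.00). Sample 4 weighs on these values, since without it the log2 fold change at 7 d was -0.10. Across all genes edgeR called 0 of 14239 at each time (a share of 0%), with 1243, 594 and 476 genes at an unadjusted p under 0.05, and DESeq2 called 9, 1 and 0.

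The samples fall into an earlier and a later year of reverse transcription. Within the earlier year, the 3 samples at 7 d (456, 476 and 390 CPM) all lay above the 3 Sham samples (376, 156 and 355 CPM), as did 6.96% of the 14239 genes. Sham sample 4 shares its day of reverse transcription with 7 d sample 8, and Sham sample 10 with 7 d sample 9. In these pairs the 7 d and Sham samples were at 456 against 156 CPM and 476 against 376 CPM. Both pairs are part of the comparison within the earlier year, so they add no separate values, and the share of all genes higher in both was not counted. With the day of reverse transcription as a block, the edgeR log2 fold changes were 1.71, 1.36 and 0.95 at 1 d, 3 d and 7 d (adjusted p = 0.210, 0.342 and 1.00), a fit chosen after seeing the data. No 1 d or 3 d sample shares a day with a Sham sample, so 1.71 and 1.36 are indirect. They run through 7 d samples 19-1 and 19-2, which share a day with samples 17-1 and 17-2 (1 d) and 17-3 (3 d). Samples alone on their day, such as Sham sample 18 and the remaining Sham sample, add nothing to these values. Within the later year, with only 1 Sham sample (18, 391 CPM), the 1 d samples ranged from 443 to 542 CPM, the 3 d samples from 328 to 570 CPM, and the 7 d samples were at 288 and 226 CPM. Sample 19-1 was labelled as 20 directly and 4 indirectly injured neurons, and sample 19-2 as 4 directly and 20 indirectly injured ones. Their Adcyap1 levels of 288 and 226 CPM, from 1 sample each, have no replicate check.

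**Figure D3:**
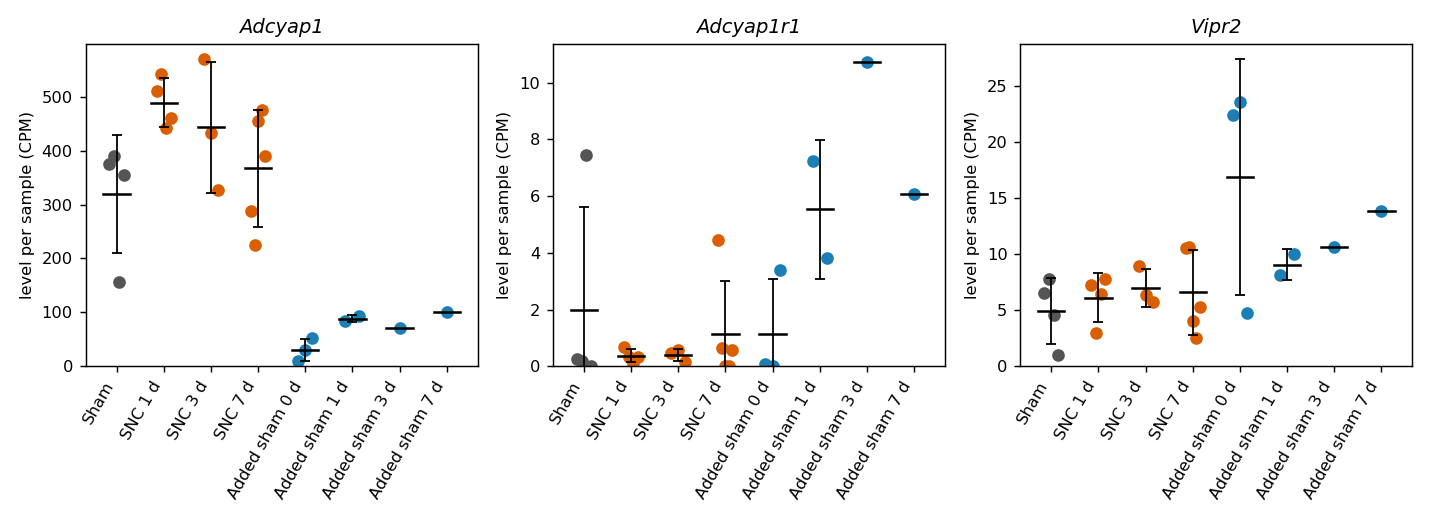
CPM of Adcyap1, Adcyap1r1 and Vipr2 over all neurons of each sample (points), by group, with bars for the mean and SD. The 4 samples at 1 d lie between 443 and 542 CPM of Adcyap1, above the 4 Sham samples, and the 7 added libraries lie between 10.2 and 101 CPM.

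Neither receptor separated the groups after SNC. Vipr2 was at 6.49, 7.78, 4.54 and 0.999 CPM in Sham, 7.23, 2.92, 6.43 and 7.79 at 1 d, 8.94, 6.33 and 5.76 at 3 d, and 10.6, 10.6, 4.06, 2.50 and 5.25 at 7 d. These groups overlapped at each time, with ratios of 1.23, 1.42 and 1.33 to Sham (adjusted p = 0.9 at each time, exact permutation test). Adcyap1r1 was at 0.249, 0.182, 7.44 and 0 CPM in Sham, with the 7.44 CPM coming almost wholly from the 1 neuron of sample 4. After SNC it was at 0.668, 0.337, 0.115 and 0.329 at 1 d, 0.451, 0.576 and 0.156 at 3 d, and 4.44, 0.630, 0, 0 and 0.587 at 7 d. Its adjusted p was 1 at each time (exact permutation test), and it was too low for the filter of the edgeR fit.

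The share of neurons with a UMI, after thinning to 50000 UMIs per neuron, also overlapped between groups. Adcyap1 was found in 90.2% ± 10.1 of Sham neurons, 97.3 ± 3.19 at 1 d, 96.1 ± 4.51 at 3 d and 97.0 ± 3.61 at 7 d. Vipr2 was found in 13.9, 17.6, 19.2 and 19.9% of neurons, and Adcyap1r1 in 1.19, 0.610, 0.844 and 3.67%. None of the 9 differences from Sham passed an exact permutation test, the lowest adjusted p being 0.735. Without Sham sample 4, the differences for Adcyap1 went from 7.11, 5.92 and 6.77 percentage points to 2.44, 1.25 and 2.10. At 20000 UMIs per neuron the difference at 1 d was 16.1 points (unadjusted p = 0.0286, exact permutation test). Without thinning, the share of neurons with at least 100 CPM of Adcyap1 was 62.3% in Sham (134 neurons), 81.1% at 1 d (193), 75.9% at 3 d (180) and 76.7% at 7 d (184), with medians of 224, 458, 385 and 360 CPM per neuron. These are values over neurons and carry no test.

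Within PEP1-like neurons, Adcyap1 was at 416 (sample 10), 485 (18), 266 (4) and 181 CPM (the remaining sample, 4 neurons) in Sham. It was at 726, 495, 727 and 445 CPM at 1 d, 494, 579 and 630 CPM at 3 d, and 607, 552, 552, 650 and 525 CPM at 7 d. Each 3 d and each 7 d sample lay above each Sham sample, as did 5.26% and 1.11% of the 10613 genes tested there, whereas 1 sample at 1 d lay below Sham sample 18. The means were 337 CPM ± 139 in Sham and 598 ± 150, 567.8 ± 68.8 and 577 ± 50.7 after SNC. The edgeR log2 fold changes were 0.71 (SE 0.21), 0.68 (SE 0.22) and 0.70 (SE 0.20), with adjusted p of 0.369, 0.788 and 0.981 over all genes, so none passed. Exact permutation tests of these levels gave unadjusted p of 0.0571, 0.0571 and 0.0159, where the last 2 are the smallest that their group sizes allow. Adjusted over 23 such tests by cluster and time they were 0.438, 0.438 and 0.365 (exact permutation test).

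Few genes passed in that fit. It called 1 gene at 1 d and 1 at 3 d (0.00942% each) and 0 at 7 d. These were Gsta4, a glutathione transferase gene (log2 fold change 4.68, SE 0.75, adjusted p = 0.0305), and RGD1562420 (log2 fold change -2.18, SE 0.29, adjusted p = 0.00233), both named after their values were seen. With no filter on low counts, the adjusted p of Adcyap1 in PEP1-like neurons by edgeR became 0.0013, 0.0169 and 0.0016. Those fits called many more genes in all, as counted in the closing section.

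PEP2-like neurons had lower levels with more spread. Adcyap1 was at 231 (sample 10), 60.5 (18), 54.3 (4) and 129 CPM (the remaining sample) in Sham, and at 413, 384, 121 and 232 CPM at 1 d, so the groups overlapped. It ranged from 32.0 to 297 CPM at 3 d and from 24.3 to 214 CPM at 7 d. The log2 fold change by edgeR was 1.26 (SE 0.57, adjusted p = 0.701) at 1 d, 0.68 (SE 0.60, adjusted p = 0.862) at 3 d and 0.05 (SE 0.54, adjusted p = 0.998) at 7 d, with 0 of 10126 genes called at each time. With no filter on low counts the adjusted p at 1 d was 3.6e-08, in a fit that called many more genes in all, as counted in the closing section. An exact permutation test of the levels at 1 d gave an unadjusted p of 0.114, or 0.526 adjusted over 23 tests.

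PEP3-like neurons, the highest cluster, showed no such difference. They held 846, 932 and 1266 CPM in Sham, 853, 1003 and 837 CPM at 1 d, 1148 and 847 CPM at 3 d, and 2056, 863 and 907 CPM at 7 d. The 2056 CPM of sample 8 came from 3 neurons. The log2 fold changes were -0.32 (SE 0.36), -0.11 (SE 0.40) and 0.33 (SE 0.36), all with an adjusted p near 1, and 0 of 10334 genes were called at each time. Whether the change with SNC differed between PEP1-like, PEP2-like and PEP3-like neurons was tested on within-sample differences, and none of 9 such tests passed (exact permutation test, adjusted p from 0.675 to 0.686). The lowest p was 0.1, for PEP2-like minus PEP3-like neurons at 1 d, where the effects differed by 2.01 on the log2 scale. With 3 samples against 3 this exact test cannot go below 0.1, so these tests do not show that the clusters changed alike.

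In NF-like neurons the means of Adcyap1 were also above Sham, with no test passed. In cluster 3 it averaged 404 CPM ± 233 in Sham (n = 3), 711 ± 42.9 at 1 d (n = 2), 517 ± 187 at 3 d (n = 3) and 436 ± 224 at 7 d (n = 4), where the lowest value, 102.5 CPM, was that of sample 19-1. In cluster 4 it averaged 195 CPM ± 139 in Sham (n = 3), 356 ± 28.4 at 1 d (n = 4), 456 ± 193 at 3 d (n = 3) and 316 ± 111 at 7 d (n = 5). The exact permutation p at these times were 0.2, 0.6 and 0.971 in cluster 3 and 0.114, 0.2 and 0.214 in cluster 4, unadjusted. Counting all clusters with values in both groups, the mean was above Sham in 7 of 8 clusters at 1 d (median ratio 1.63, range 0.885 to 2.42), in 7 of 8 at 3 d (median 1.43) and in 5 of 7 at 7 d (median 1.26, range 0.619 to 1.71). All clusters of a time share the same Sham samples, so they are not independent.

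**Figure D4:**
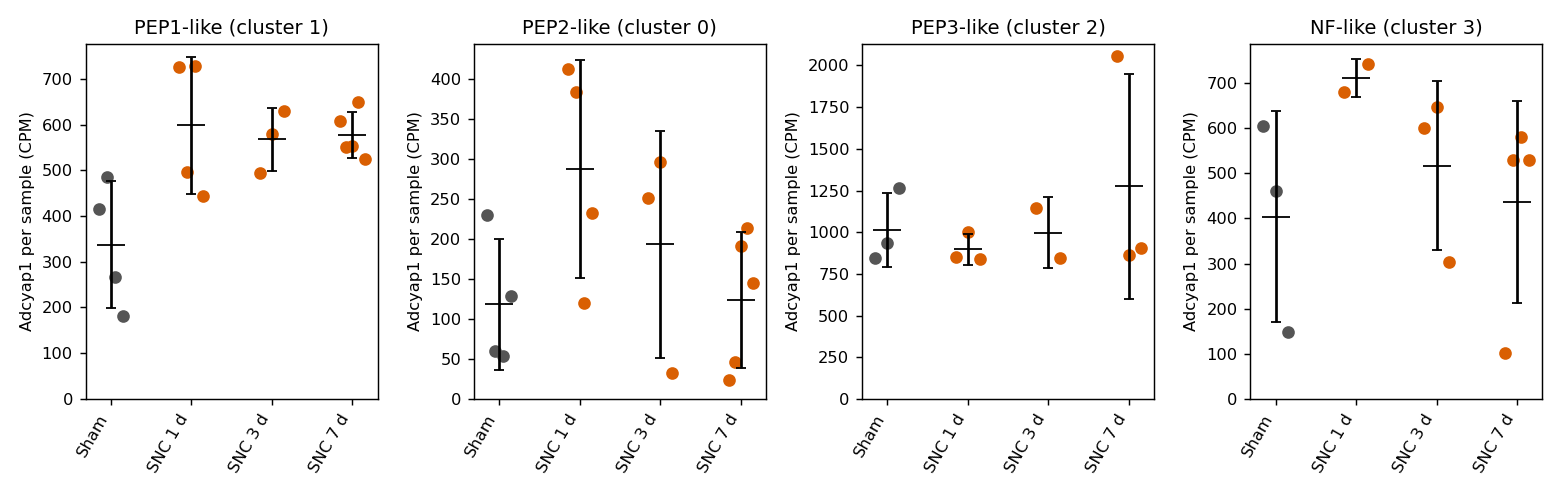
Adcyap1 CPM per sample in PEP1-like, PEP2-like, PEP3-like and NF-like cluster 3 neurons (points), by group, with bars for the mean and SD. PEP1-like samples at 3 d and 7 d all lie above the 4 Sham samples, and the groups overlap in PEP2-like and PEP3-like neurons.

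Of these comparisons between groups of samples, the ligand differed most between the labelled Sham samples and the added sham libraries. Adcyap1 was at 10.2 (S1), 29.5 (S2), 51.7 (S7), 83.7 (S3), 93.4 (S6), 71.0 (S4) and 101 CPM (S5) in the added libraries, against 156 to 391 CPM in labelled Sham. All 7 lay below all 4, as did 7.72% of the 15791 genes tested. The means were 63.0 and 320 CPM (ratio 0.197), and the log2 fold change by edgeR was -2.49 (SE 0.45) with an adjusted p of 0.00101. In that fit 16.5% of genes were called lower and 24.2% higher, and the median gene differed by 0.15, so a call by itself is common here. The sets also differ in dye labelling, with its earlier injection into the nerve, and in makeup of neuron types. No day of reverse transcription is given for the added libraries, so the batch of libraries goes with the set as well. Batch, dye labelling and makeup cannot be told apart.

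The difference was also seen between like clusters. NF-like neurons led by Shox2 and Ntng1 held 31.3 to 63.7 CPM of Adcyap1 in 5 added libraries and 148 to 604 CPM in 3 labelled Sham samples. This is a description of clusters that were made separately in the 2 sets.

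The genes that mark axon injury were lower in the added libraries as well. Atf3, a transcription factor that injured neurons switch on, was at 154 CPM ± 47.2 against 580 ± 258 in labelled Sham (log2 fold change -2.06, SE 0.28, adjusted p = 0.000175 by edgeR). Gal, the gene of galanin, was at 7.36 CPM ± 6.94 against 1198 ± 785, and Sprr1a was at 0.0319 CPM against 152, being near 0 in the added libraries. Sox11 (log2 fold change -1.84) and Gap43 (log2 fold change -1.47), which act in axon growth, were also called lower, which makes 5 of 5 injury genes. Vip was called lower too, at 13.1 CPM ± 10.5 against 432 ± 163 (log2 fold change -5.19, SE 0.60, adjusted p = 8.03e-05). After SNC these 5 genes did not pass in the labelled set. Atf3 averaged 532, 511 and 547 CPM at 1 d, 3 d and 7 d against 580 CPM in labelled Sham.

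**Figure D5:**
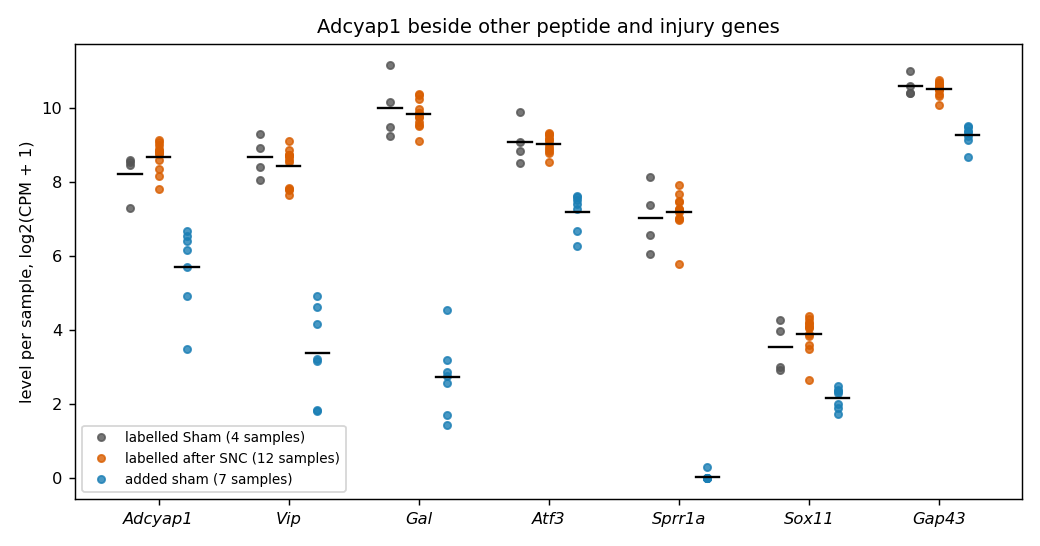
Adcyap1, Vip, Gal and the injury genes Atf3, Sprr1a, Sox11 and Gap43 as log2(CPM + 1) in each labelled Sham, labelled SNC and added sham sample (points), with a bar at the mean of each set. For each gene the added libraries lie lowest on average, and labelled Sham and SNC samples overlap.

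The receptors did not fall with the ligand. Vipr2 was at 22.4, 23.5, 4.73, 8.08, 10.0, 10.6 and 13.8 CPM in libraries S1, S2, S7, S3, S6, S4 and S5, a mean of 13.3 against 4.95 CPM in labelled Sham (log2 fold change 1.29, SE 0.53, adjusted p = 0.0681 by edgeR). The call depends on the tool and on 1 library, with an adjusted p of 0.0293 by DESeq2 and of 0.0348 by edgeR without S7. Adcyap1r1 was at 0.0714, 0, 3.39, 7.25, 3.81, 10.7 and 6.09 CPM, a mean of 4.48 against 1.97 (log2 fold change 1.07, SE 1.2975, adjusted p = 0.532 by edgeR). Without Sham sample 4, whose counts came almost wholly from 1 neuron, its log2 fold change was 4.46 (adjusted p = 0.0453).

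Among the added libraries, days 1 to 7 were set against day 0. Adcyap1 averaged 30.5 CPM over the 3 libraries at day 0 and 87.4 CPM over the 4 later ones, and all 4 lay above all 3, as did 5.66% of the 16175 genes tested. Neither this (log2 fold change 1.53, SE 0.43, adjusted p = 0.523 by edgeR) nor the difference in Adcyap1r1 (1.15 and 6.97 CPM, log2 fold change 2.58, SE 1.21, adjusted p = 0.530) passed. Vipr2 averaged 16.9 and 10.6 CPM (log2 fold change -0.70, SE 0.51, adjusted p = 0.633). The makeup of the libraries moves with these values. S1 and S2, both of day 0, held no NF-like neuron and 0 and 3 neurons of cluster 0, where Adcyap1r1 and Adcyap1 are highest, and the glial marker sum was 122 to 664 CPM at day 0 and 418 to 823 CPM later. Their part in the difference was not tested.

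The comparison by day depended on library S7. edgeR called 0 of 16175 genes (1503 at an unadjusted p under 0.05), DESeq2 called 196, and without S7 edgeR called 1992. Without S7 the log2 fold changes were 2.10 for Adcyap1 (adjusted p = 0.0089), 7.496 for Adcyap1r1 (adjusted p = 0.0027) and -1.15 for Vipr2 (adjusted p = 0.0274). With 1 or 2 libraries at each later time, day and library cannot be told apart.

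Other genes of the pathway were counted from lists of related peptides and receptors, peptide processing enzymes, receptor partners and peptidases, Gs and cyclic AMP signalling, and Gq and phospholipase C signalling. After SNC no gene of these lists passed at any time in all labelled neurons. The median log2 fold changes at 1 d, 3 d and 7 d were -0.01, 0.47 and 0.07 over 6 related peptides and receptors, -0.06, 0.00 and -0.05 over 5 processing enzymes, 0.13, 0.03 and 0.05 over 3 partners and peptidases, 0.10, -0.04 and 0.01 over 20 cyclic AMP genes and -0.28, 0.34 and 0.07 over 5 Gq genes. The median over all 14239 genes was within 0.01 of 0. The 6 glial markers tested had medians of -0.02, -1.42 and -1.65 at these times, with none called.

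The enzymes that cut and amidate neuropeptide precursors were abundant and even. Cpe, a carboxypeptidase, was at 398 to 479 CPM in Sham, 369 to 461 at 1 d, 390 to 438 at 3 d and 403 to 486 at 7 d. It was at 391 to 499.6 CPM in the added libraries, so all groups overlapped. Scg5, a helper of the convertase PC2, was at 347 to 395 CPM in Sham and at 353 to 420.0 CPM in the added libraries. The convertase genes Pcsk1 and Pcsk2 averaged 132 and 269 CPM in Sham. No enzyme of this list was called in any comparison over all neurons. Crem, a cyclic AMP-responsive repressor gene, was at 78.1 to 123 CPM in Sham and 147 to 199 CPM at 1 d. Every 1 d sample lay above every Sham sample, as for 2.35% of the 14239 genes tested. Crem did not pass (log2 fold change 0.58, SE 0.15, adjusted p = 0.518 by edgeR). Ramp3 and Ramp2, partners of receptors in this family, averaged 39.2 and 14.8 CPM in Sham.

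Between added and labelled Sham more of these genes passed. Of 8 related genes tested, Gipr, the receptor of the gut peptide GIP, was higher in the added libraries (log2 fold change 1.87, SE 0.41, adjusted p = 0.00315), and Vip and Ghrhr, the receptor of growth hormone-releasing hormone, were lower (Ghrhr -4.20, SE 0.85, adjusted p = 0.00198, at 0.110 against 2.09 CPM). The median of this list was 1.12. Of 4 partners and peptidases only Dpp4, a peptidase that trims peptides of this family, passed (log2 fold change 4.51, SE 0.94, adjusted p = 0.00232), at 1.03 against 0.0318 CPM. None of 5 processing enzymes passed.

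In the cyclic AMP list 4 of 21 genes were higher in the added libraries and 3 were lower, with a median of 0.21. Adcy5, an adenylyl cyclase, was at 5.66 to 9.49 CPM in labelled Sham and at 24.2 to 37.7 CPM in the added libraries (log2 fold change 1.92, SE 0.24, adjusted p = 0.000102). Adcy6 (2.08, adjusted p = 0.0165), Prkaca (1.01) and the phosphodiesterase Pde4d (1.03, adjusted p = 0.0327) were higher too, and Prkar1a (-1.03), Creb1 (-0.91) and Crem (-0.77) were lower, in log2 fold change by edgeR. Prkaca and Prkar1a encode a catalytic and a regulatory subunit of protein kinase A. In the Gq list 2 of 5 genes were higher, Gnaq (1.73, adjusted p = 0.0210) and Plcb4 (1.38, adjusted p = 0.0286), with a list median of 0.76. Both lost the call without Sham sample 10, Sham sample 18 or the remaining Sham sample. These shares stand beside the 16.5% and 24.2% of all genes called lower and higher.

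The genes most like Adcyap1 across the 930 labelled neurons were Kcnk3, a potassium leak channel gene (Spearman's rho 0.53), Sytl3 (0.52), Cldn16 (0.52), Gda (0.51) and Pam (0.51), the amidating enzyme. In the 503 added neurons the same genes had rho of 0.56, 0.40, 0.44, 0.43 and 0.41. Those most like Vipr2 were Slitrk3 (0.40), Ccdc141 (0.40), Rprm (0.39), Htr3a (0.37), a serotonin-gated channel gene, and Pfkm (0.37). In the added neurons their rho was -0.01, 0.31, -0.11, 0.18 and 0.16, so 3 of the 5 kept a positive rho (Ccdc141, Htr3a and Pfkm), and Slitrk3 and Rprm did not. Neurons share libraries and depth, so these values describe the neurons and carry no test. Adcyap1r1 was in too few labelled neurons for such a ranking.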

How the data were processed

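Neurons were picked by hand and their RNA was copied by a modified Smart-seq2 with cell barcodes and UMIs. The authors used STAR for alignment to Rnor_6.0, featureCounts (Subread) and SAMtools for gene assignment, and UMI-tools to collapse duplicates. The authors deposited whole UMI counts per gene and cell, without normalization. Counting at transcript ends does not distinguish isoforms, and CPM is not compared between genes as a level per length.

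The members and lists were chosen with earlier results of these data known, and the PEP markers come from the study of these samples. Of 1464 cells, the 1433 that reached 500 genes and 1000 UMIs with under 5% of mitochondrial counts were used. No doublet caller was run on these hand-picked cells. All 96 barcode numbers recur among libraries, as well barcodes do, and 0 cells had identical values. Replicates differed beyond sampling noise (lowest chi-square per degree of freedom 10.1).

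Each set was clustered with Seurat 5.3.0 (2000 variable genes without the members and Vip, 40 components, resolution 0.5). A cluster was named from at least 3 markers at 1.5 times the level of other cells and in at least 25% of its cells. Leaving added cluster 0 and clusters with at least 4 glial markers unnamed was decided after seeing the data. Counts were summed per sample (2 libraries of sample S together) and, per cluster, in samples with at least 3 cells. Sums were tested with edgeR 4.0.16 in R 4.3.3 (quasi-likelihood test, TMM, filterByExpr, Benjamini-Hochberg over all genes tested, threshold 0.05). CPM per sample is over all counted UMIs. Levels, shares and overlaps were compared by exact two-sided permutation or sign-flip tests in SciPy 1.17.1 on log2(CPM + 1) or percent, and levels between clusters were described only. Fits were tested on simulated data. Alternatives were DESeq2 1.42.0, its size factors, no low-count filter, thinned cells, a term for the year of reverse transcription, the day of reverse transcription as a block (added later), other clusterings, a pseudocount of 10 and leaving out each sample. Genes named are the members, the 5 most like each by Spearman's rho among genes in at least 20% of labelled cells, called or abundant list genes (up to 5 and 4 a list), injury genes and naming markers. Vipr1, Gnas, Pde4c and Pecam1 are not analysed here. Promoter windows are from RefSeq (GRCr8), with 3 of 3 members matched.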

Additional observations from a re-analysis of the deposited data

Results flagged for a closer look

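Within groups of 4 to 10 samples, 15 of 73 sets of values had a highest or lowest sample whose gap to the nearest other sample was a large part of the whole range, by Dixon's test at 95%. Chance marks about 1 in 20 such sets where values are normally distributed. Some sets here are low counts with a single sample above 0, and their gap is the whole range by construction. The number flagged is therefore not to be read against that rate.

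Over all neurons of a sample, Sham sample 4 was lowest for Adcyap1 (156 CPM) and highest for Adcyap1r1 (7.44 CPM). Sample 19-1 stood apart at 7 d in Adcyap1r1, both in level (4.44 CPM) and in the share of neurons with a UMI (29.2%). It was also lowest of the 7 d samples for Adcyap1 in NF-like cluster 3 (102.5 CPM) and highest for Adcyap1r1 in PEP2-like neurons (4.86 CPM). Sample 19-2 was the only 7 d sample with Adcyap1r1 in NF-like cluster 4 (4.78 CPM).

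At 1 d, sample 13 was high for Vipr2 in PEP2-like neurons (5.67 CPM), and sample 16 was the only 1 d sample with Adcyap1r1 in PEP1-like neurons (0.199 CPM, from 1 UMI). Among the added libraries, S2 was high for Vipr2 in cluster 0 (71.3 CPM), S4 for Adcyap1 in NP-like neurons (38.3 CPM), S6 for Adcyap1r1 in cluster 5 (14.3 CPM), S1 for Adcyap1 in SST-like neurons (174 CPM), S4 for Adcyap1r1 in SST-like neurons (2.33 CPM) and S1 for Vipr2 in c_pLTMR2-like neurons (1.04 CPM).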

How the results depend on the processing

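Replicate numbers follow the order of listing and pair nothing, but Sham samples 4 and 10 each share a day of reverse transcription with a 7 d sample. No 1 d or 3 d sample shares a day with a Sham sample, so a fit with the day as a block reaches those times only indirectly. With this day as a replicate block, a choice made after seeing the data, Adcyap1 passed nowhere and was at 0.95 at 7 d, and Vipr2 turned to -1.38, -1.57 and -0.76 at 1 d, 3 d and 7 d. Genes called were then 18, 9 and 2 (PEP1-like), 2 and 4 (PEP2-like, 1 d and 3 d) and 1 and 3 (all labelled, 1 d and 3 d). PEP3-like neurons could not be fitted with the block. Of 162 alternative values of 54 cluster levels, 3 moved beyond 1 SD. These were Adcyap1r1 (26.4 CPM) and Vipr2 (3.4997 CPM) in the added NF-like cluster at resolution 0.8, and Vipr2 in the added cluster 5 (16.5 CPM) when clustered with the members. The cause of the changes below was not tested, other than fewer samples or genes where the setting says so.

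With no filter on low counts, Adcyap1 passed in PEP1-like neurons with log2 fold changes of 0.74, 0.70 and 0.73 and in PEP2-like neurons at 1 d with 1.27. With DESeq2, Adcyap1 by day passed with 1.52 and Vipr2 in added libraries with 1.27. With the year as a term, Adcyap1 in PEP3-like neurons at 3 d was at 0.12, and Vipr2 was at -0.67 at 1 d and -0.40 at 3 d. With at least 5 cells, Adcyap1 in PEP3-like neurons at 7 d was at -0.32. With thinned cells, Vipr2 at 7 d was at -0.11 and Gnaq at 1.71. Without S1 and S2, a choice made after seeing the data, Vipr2 by day was at 1.24 and Gnaq at 0.94. The share difference of Adcyap1r1 was 2.61 points at 1 d and 0.709 at 3 d with no thinning, and -0.0627 at 7 d at 20000 UMIs. The overlap with Adcyap1r1 was -6.57 points in the added set and -1.53 in the labelled set from 10 UMIs of Adcyap1, and -0.903 in the labelled set at 20000 UMIs.

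Genes called by DESeq2 and with no filter were, in PEP1-like neurons, 10 and 183 at 1 d, 2 and 69 at 3 d and 2 and 60 at 7 d. In PEP2-like neurons they were 12 and 141 at 1 d and 7 and 133 at 3 d, with 55 at 7 d unfiltered. In PEP3-like neurons they were 3 and 58, then 1 and 30, with 48 at 7 d unfiltered. By day DESeq2 called 196, and in all labelled neurons 9 at 1 d and 1 at 3 d, where no filter gave 1. With the year as a term the counts were 2 (PEP1-like, 3 d), 1 (PEP2-like, 1 d and 3 d) and 1 (all labelled, 1 d and 3 d), and with at least 5 cells 2 (PEP2-like, 1 d).

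Leaving out 1 sample each gave ranges of -0.10 to 0.27 for Adcyap1 at 7 d, -0.21 to 0.58 in PEP2-like neurons at 7 d, -0.36 to 0.20 in PEP3-like neurons at 3 d (1 sample can be left in a group and is assumed to vary like the others) and -0.32 to 0.63 at 7 d, and 1.13 to 2.10 by day. Adcyap1r1 ranged from 0.63 to 4.46 in added libraries and 2.03 to 7.496 by day, and Vipr2 from 0.94 to 1.58, from -1.15 to -0.39 by day and from -0.10 to 0.48 at 1 d. The PEP1-like minus PEP2-like effect ranged from -0.68 to 0.97 at 3 d and the PEP1-like minus PEP3-like one from -0.049 to 0.81 at 7 d. Adcy6 ranged from 1.74 to 2.66 (highest adjusted p = 0.0615), Gnaq from 1.37 to 2.02 and Plcb4 from 1.10 to 1.86. Shares ranged from -1.19 to 0.0753 points for Adcyap1r1 at 3 d and from -0.948 to 5.997 for Vipr2 at 1 d. Counts of calls ranged from 0 to 1 (PEP1-like 1 d and 7 d, PEP2-like 3 d, PEP3-like 1 d and 7 d, all labelled 1 d and 3 d), 1 to 3 (PEP1-like 3 d), 0 to 3 (PEP2-like 1 d) and 0 to 1992 (by day).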
